A study of Arabidopsis thaliana with 24 samples.

Results

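Transcript levels were compared between Arabidopsis root epidermal cells that had lost a regulator promoting hair fate and cells that had lost a regulator promoting non-hair fate. The comparison used 18 of the 24 arrays of the series, chosen by genotype alone. The hair-regulator mutants were cpc-1 and try-82, with 3 arrays each and 6 in all. The non-hair-regulator mutants were wer-1, myb23-1, gl3-1 and egl3-1, with 3 arrays each and 12 in all. All lines also carried WER::GFP, a green fluorescent reporter under the WEREWOLF promoter that is active in the developing epidermis and in the lateral root cap, so the sorted cells include both. RNA came from fluorescent cells sorted out of digested root ends, about 2 mm long, of seedlings aged 5 days. The labels call the 3 arrays of each line biological replicates. No wild type was analysed here, and the 6 arrays of ttg2 and of cpc ttg2 served only to estimate the spread. Each mutation is represented by 1 line, so the mutation and anything else that sets a line apart cannot be told apart, and the labels do not name the parental strain of any line.

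In the Arabidopsis root, epidermal cells lie in files that either grow hairs or stay hairless. In hairless cells, a complex of an R2R3 MYB protein (WER, with MYB23 acting later), a bHLH protein (GL3, EGL3 or MYC1) and the WD40 protein TTG1 turns on GL2, a homeodomain protein that blocks the hair programme, and also turns on the small R3 MYB proteins CPC, TRY and ETC1. The R3 MYB proteins move into neighbouring cells, where they compete with WER for the bHLH partner, GL2 stays low, and the bHLH proteins RHD6 and RSL4 start hair outgrowth. Roots without CPC are known for few hairs and roots without WER for hairs on most files, while loss of TRY, MYB23, GL3 or EGL3 alone is known for milder effects on root hairs.

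Each difference below is the mean of the 2 hair-regulator line means minus the mean of the 4 non-hair-regulator line means on the log2 scale, with its standard error (SE). A positive difference means a higher level in the cpc and try arrays. Differences were tested with limma over all 21440 genes, and a gene is said to have risen, fallen or been called where its Benjamini-Hochberg (BH) adjusted p was under 0.05. Of the 21440 genes, 697 were called, or 3.25%. They were 325 genes that rose (1.52%) and 372 that fell (1.74%), and 3428 genes (16%) had an unadjusted p under 0.05. Among the called genes, the median difference was 0.93 for those that rose and -1.07 for those that fell, while the median over all genes was 0.0028. A difference of at least 1 in size was reached by 136 genes that rose and 203 that fell, and a difference of at least 2 by 7 and 41.

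The arrays were not alike in ways that bear on these calls. Arrays cpc replicate 3 and egl3 replicate 2 had mean correlations of 0.925 and 0.938 with the other arrays, the lowest among the 18, and without both the count of called genes was 423, of which 377 were among the 697. The count without cpc replicate 3 alone was 341, without try replicate 3 it was 359 and without cpc replicate 2 it was 449. It rose to 916 without egl3 replicate 2 alone and to 1020 without cpc replicate 1. Over the 18 runs that each left out 1 array it ran from 341 to 1020. The 25S ribosomal RNA control lay between 8.04 and 9.72, with a median of 9.01, in the cpc and try arrays and between 8.43 and 11.35, with a median of 10.13, in the other 12, and the part of this shift in the results was not tested. The mean over mitochondrially encoded transcripts lay between 4.95 and 7.13 in the cpc and try arrays and between 5.46 and 6.86 in the other 12. Both ranges of these controls overlapped.

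The 3 gl3 arrays differed among themselves along a stretch of chromosome 5. In 22 genes, gl3 replicate 1 lay at least 3 log2 units from the mean of gl3 replicates 2 and 3, which were within 1 of each other. Of these genes, 14 were on chromosome 5, from AT5G39080 to AT5G65350 in gene order, and gl3 replicate 1 was the higher array in all 14. The loci of GL3 (AT5G41315) and TRY (AT5G53200) lie in the same stretch and that of MYB23 (AT5G40330) does too. Of the 14 genes, 9 were among the 697 called genes. Without gl3 replicate 1, 832 genes were called, of which 638 were among the 697. Values without it are given below for those of these genes that are among the largest falls. Counts by chromosome position were not redone without it.

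The genes that mark the mutations were read first. TRY, an R3 MYB gene, was higher in its own mutant line than in the other 5 lines by 1.94 (limma BH-adjusted p = 0.00497), and the adjusted p was 0.0795 without try replicate 2 and 0.0592 without try replicate 3. CPC differed by -0.77 in the cpc line (adjusted p = 0.0839), WER by -0.34 in the wer line (0.445), MYB23 by -0.30 in the myb23 line (1.0) and EGL3 by 0.33 in the egl3 line (0.791). GL3 was not among the genes analysed here. A mutant allele need not lower its own transcript and the position of the probes is not given in the sources used here, so these levels do not check the labels.

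Among the 15 measured patterning genes, 3 rose and 0 fell, or 20% called against 3.25% of all genes. The 3 were the R3 MYB genes TRY and ETC1 and the WRKY gene TTG2. The list's median difference was 0.19, with 10 of 15 genes positive, against 50.5% positive over all genes. It contained no gene whose 6 cpc and try arrays all lay on one side of the other 12.

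TRY was between 9.46 and 11.19, with a median of 9.91, in the cpc and try arrays and between 5.77 and 9.72, with a median of 8.83, in the other 12. The difference was 1.57 ± 0.30 SE (adjusted p = 0.00429), or 2.97-fold. Both groups contain a line that bears on this value, because the try line itself had the highest mean, 10.71 ± 0.55 SD, while cpc averaged 9.57 ± 0.14 and wer, the lowest line, 7.09 ± 1.21 (n = 3 each). Without the try line the adjusted p was 0.165, and with line as a random block, which counts arrays of 1 line as related, it was 0.197.

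ETC1, another R3 MYB gene that acts with CPC and TRY, was between 7.68 and 8.76, with a median of 8.44, in the cpc and try arrays and between 5.80 and 8.08, with a median of 7.08, in the other 12. It rose by 1.25 ± 0.27 SE (adjusted p = 0.0116). In 4 of the 6 cpc and try arrays it exceeded every one of the other 12, and the remaining 2 overlapped with them. The adjusted p was 0.188 without the cpc line and below 0.05 without any other single line. With line as a random block it was 0.0927.

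TTG2, a WRKY factor downstream of the complex, was between 6.75 and 7.62, with a median of 7.30, in the cpc and try arrays and between 5.18 and 7.02, with a median of 6.66, in the other 12. It rose by 0.78 ± 0.19 SE (adjusted p = 0.0298). The wer arrays were the lowest line, at 5.65 ± 0.42 SD (n = 3), and the adjusted p was 0.278 without wer, 0.123 without cpc and 0.105 without try. With line as a random block it was 0.223. Among 18 runs that each left out 1 array, TTG2 was called in 12.

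GL2, the main repressor of the hair programme, missed the threshold. It lay between 8.27 and 10.04, with a median of 9.10, in the cpc and try arrays and between 5.90 and 9.13, with a median of 8.50, in the other 12. The difference was 0.95 ± 0.29 SE (adjusted p = 0.0779), and the wer line, at 6.92 ± 0.93 SD (n = 3), was the lowest of the 6. The adjusted p was 0.0497 without gl3 and 0.0376 without egl3, but 0.33 without cpc, 0.119 without try, 0.431 without wer and 0.102 without myb23. Of the 18 runs that left out 1 array, 1 called GL2, that without cpc replicate 3 (0.0289).

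MYC1, a bHLH partner of WER, had the lowest difference on the list. Its level was between 4.93 and 8.67, with a median of 7.12, in the cpc and try arrays and between 6.77 and 9.01, with a median of 8.47, in the other 12. The difference of -1.27 ± 0.36 SE was not called (adjusted p = 0.0557). The cpc line averaged 5.98 while the try line, at 8.17, lay among the other 4, whose means were 8.12 to 8.77. With cpc as the only hair-regulator line the adjusted p was 0.0127, and with try as the only one it was 0.982.

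The remaining patterning genes were not called. EGL3 differed by -0.78 ± 0.30 (adjusted p = 0.188), WER by 0.28 ± 0.15 (0.386), CPC by -0.18 ± 0.19 (0.671), and the WD40 gene TTG1 by -0.19 ± 0.14 (0.547). MYB23, the shoot MYB gene GL1, the R3 MYB gene ETC2, the receptor-like kinase gene SCM, its partner QKY and the zinc finger gene JKD differed by -0.20 to 0.27, with adjusted p from 0.695 to 0.941. For MYB23, GL1, CPC, ETC2, SCM, QKY and JKD the sign depended on which line or array was in the comparison.

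**Figure D1:**
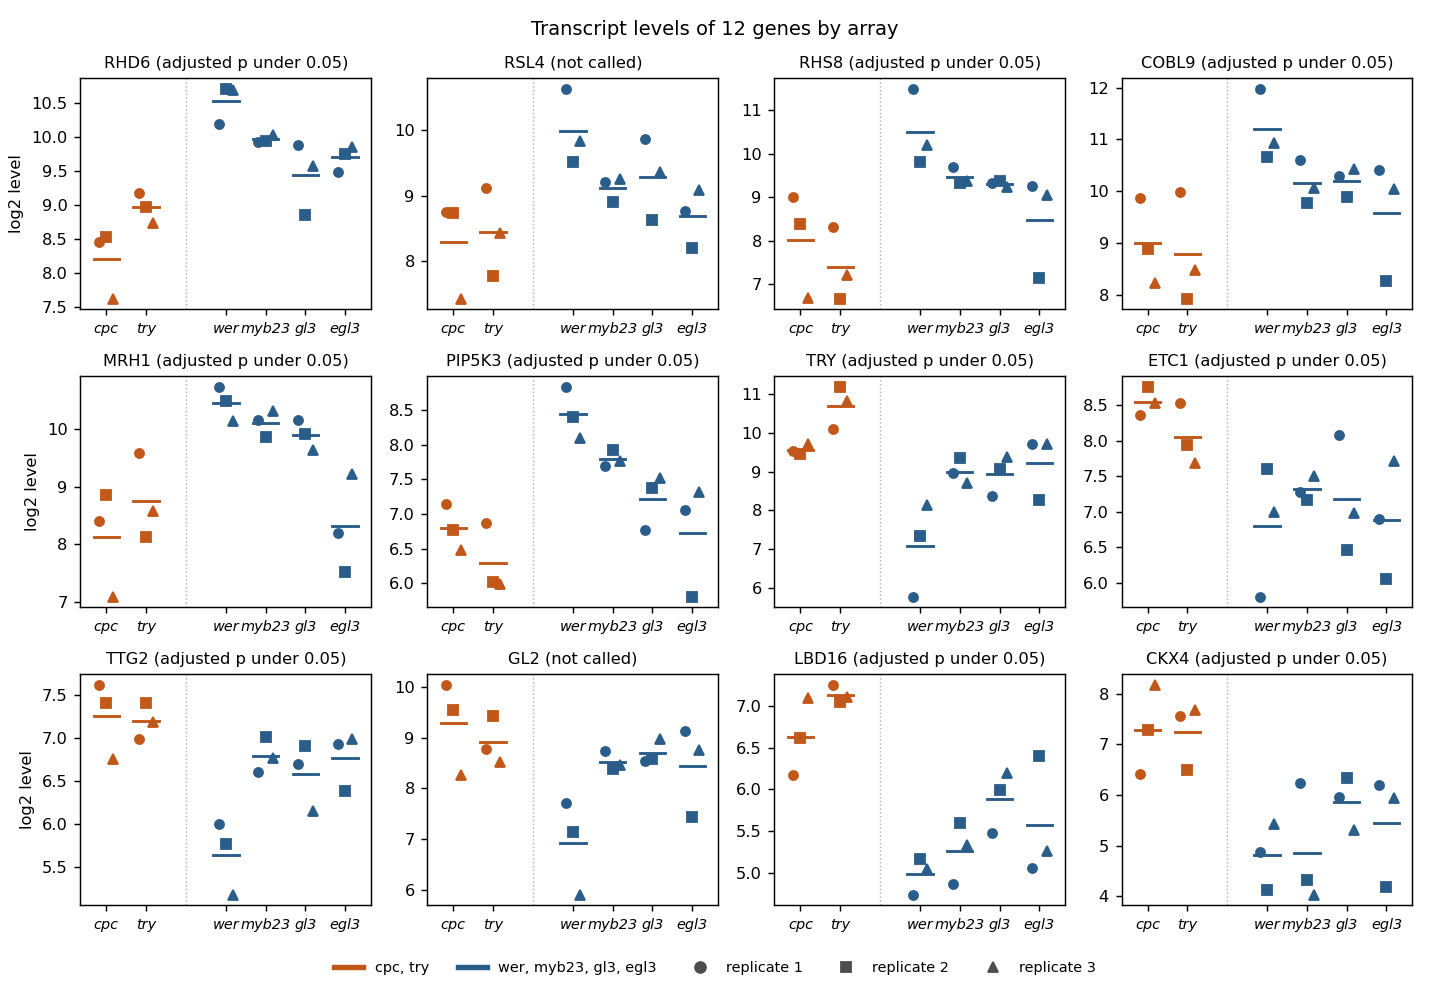
Log2 level of 12 genes in each of the 18 arrays, by line, with cpc and try in orange at the left and wer, myb23, gl3 and egl3 in blue at the right. Horizontal bars are means of 3 arrays and symbols mark the replicate number. RHD6 is lower and TRY, ETC1 and LBD16 are higher in the cpc and try arrays, while in MRH1 and PIP5K3 the egl3 line lies as low as cpc and try.

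Most root hair genes had negative differences between the cpc and try arrays and the other 12, and few passed the test. Over 3 lists with 64 measured genes (bHLH factors, growth machinery and wall genes), 5 fell and 0 rose, or 7.81% against 3.25% of all genes. The difference was negative in 60 of 64 genes, or 93.8%, against 49.5% over all genes, and the lists' joint median was -0.50. An unadjusted p under 0.05 was reached by 31 of the 64, against 16% of all genes. In bulk samples, fewer hair-forming cells and less hair-gene RNA per cell cannot be told apart.

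RHD6, the bHLH factor that starts hair outgrowth, was the clearest of these genes. It lay between 7.62 and 9.18, with a median of 8.64, in the cpc and try arrays and between 8.86 and 10.71, with a median of 9.91, in the other 12. RHD6 fell by 1.33 ± 0.21 SE on the log2 scale (adjusted p = 0.000963), or 2.51-fold. Only gl3 replicate 2, the lowest of the 12, overlapped with the cpc and try arrays, of which 4 were below all 12. RHD6 was called in all 18 runs that left out 1 array, and it also passed with line as a random block (adjusted p = 0.0256). With the 6 line means as the units in limma it was not called (adjusted p = 0.459). Of the 6 lines, cpc was the only one whose removal ended the call (adjusted p = 0.0648).

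The other 3 measured bHLH factors had differences of the same sign and were not called. RSL4, which drives hair elongation downstream of RHD6, was between 7.43 and 9.12, with a median of 8.58, in the cpc and try arrays and between 8.21 and 10.63, with a median of 9.23, in the other 12, a difference of -0.90 ± 0.28 SE (adjusted p = 0.0933). LRL1 and LRL3, which promote hair growth, differed by -0.65 ± 0.35 (0.395) and -0.74 ± 0.40 (0.396). The median over the 4 factors was -0.82. In 3 of the 4 both line means of cpc and try were below the other 4, against 7.34% of all genes. By line, the list's median deviation from the mean of the 6 lines was -0.93 in cpc, -0.30 in try, 0.94 in wer, 0.29 in myb23, 0.22 in gl3 and -0.07 in egl3.

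The growth list holds kinases, channels, GTPases, phospholipid enzymes and cytoskeletal genes of hair tip growth. Of its 39 measured members 2 fell and 0 rose, or 5.13%, near the 3.25% of all genes. In 35 the difference was negative, and the median was -0.33. MRH1, a receptor-like kinase gene needed for normal hair shape, was between 7.09 and 9.58, with a median of 8.49, in the cpc and try arrays and between 7.53 and 10.74, with a median of 10.03, in the other 12. It fell by 1.26 ± 0.32 SE (adjusted p = 0.0373). The egl3 line, at 8.32, lay between cpc at 8.12 and try at 8.76, and the other lines averaged 9.91 to 10.46. MRH1 was called in 9 of 18 runs that left out 1 array, and its adjusted p was at most 0.157 in these runs. Without egl3 it was called, and without each other line it was not.

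PIP5K3 makes the phosphoinositide that marks the hair tip. Its level was between 5.995 and 7.14, with a median of 6.63, in the cpc and try arrays and between 5.80 and 8.84, with a median of 7.61, in the other 12, and it fell by 1.00 ± 0.23 SE (adjusted p = 0.02). The egl3 line, at 6.73, was again in the range of cpc and try, which averaged 6.80 and 6.29. The adjusted p was at most 0.0797 in the runs without cpc replicate 2, cpc replicate 3, try replicate 2 or try replicate 3, and PIP5K3 was called in the other 14. It was not called without try, wer or myb23 (adjusted p of up to 0.222).

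Not all growth genes had negative differences. RALF1, a peptide hormone that signals through the receptor FERONIA, had the highest difference on the list, 0.83 ± 0.39 (adjusted p = 0.301), and FER itself differed by 0.06 ± 0.13 (0.843). Among the more negative but uncalled members were SYP123, a hair-tip syntaxin, at -1.08 ± 0.38 (0.132), and IRE, a protein kinase of hair elongation, at -1.03 ± 0.30 (0.0633). These 4 genes were picked from the list after their values were seen.

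All 21 measured wall genes had negative differences, with a median of -0.63, from -1.73 to -0.10. Of them 2 fell, or 9.52%, against 3.25% of all genes. RHS8, a glycosyltransferase gene of the hair wall, was between 6.67 and 9.002, with a median of 7.77, in the cpc and try arrays and between 7.15 and 11.49, with a median of 9.36, in the other 12. It fell by 1.73 ± 0.40 SE (adjusted p = 0.0195), or 3.32-fold. Of the 12, egl3 replicate 2 was the only array in the range of the cpc and try arrays. The call ended without cpc replicate 3, try replicate 2 or try replicate 3, with an adjusted p of up to 0.0906. It was not called without try, wer or myb23 either (up to 0.146).

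COBL9, which encodes a COBRA-like protein needed for hair growth, was between 7.93 and 9.99, with a median of 8.68, in the cpc and try arrays. In the other 12 it was between 8.28 and 11.97, with a median of 10.35. It fell by 1.38 ± 0.36 SE (adjusted p = 0.0372) and was called in 8 of 18 runs that left out 1 array, with an adjusted p of up to 0.145. The wer arrays averaged 11.19, above every other line, and without wer the adjusted p was 0.209. It was 0.0925 without cpc, 0.118 without try and 0.0748 without myb23. With line as a random block, MRH1, PIP5K3, RHS8 and COBL9 were not called (adjusted p = 0.27, 0.259, 0.147 and 0.197).

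The lines were graded rather than split in the hair lists. By line, the median deviation of the wall list was -0.44 in cpc and -0.45 in try, against 0.77 in wer, 0.18 in myb23, 0.17 in gl3 and -0.24 in egl3. For the growth list the medians were -0.32 in cpc and -0.18 in try, against 0.46 in wer, 0.16 in myb23, 0.10 in gl3 and -0.29 in egl3. In the growth list egl3 thus lay below try. Without wer, the medians of the bHLH, growth and wall lists were -0.66, -0.22 and -0.45, with 1, 0 and 0 called genes. Without egl3 they were -1.02, -0.49 and -0.85, with 2, 8 and 5 called genes, all of which fell. Without cpc replicate 3 and egl3 replicate 2 they were -0.61, -0.25 and -0.55, with 1, 1 and 2 called genes.

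Single arrays spread widely within lines. The wall list's median deviation was -1.06 in cpc replicate 3 and -1.27 in try replicate 2, against 0.13 in cpc replicate 1 and 0.17 in try replicate 1. The highest array was wer replicate 1, at 1.33. In try replicate 1 the medians of all 3 hair lists were above 0.

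**Figure D2:**
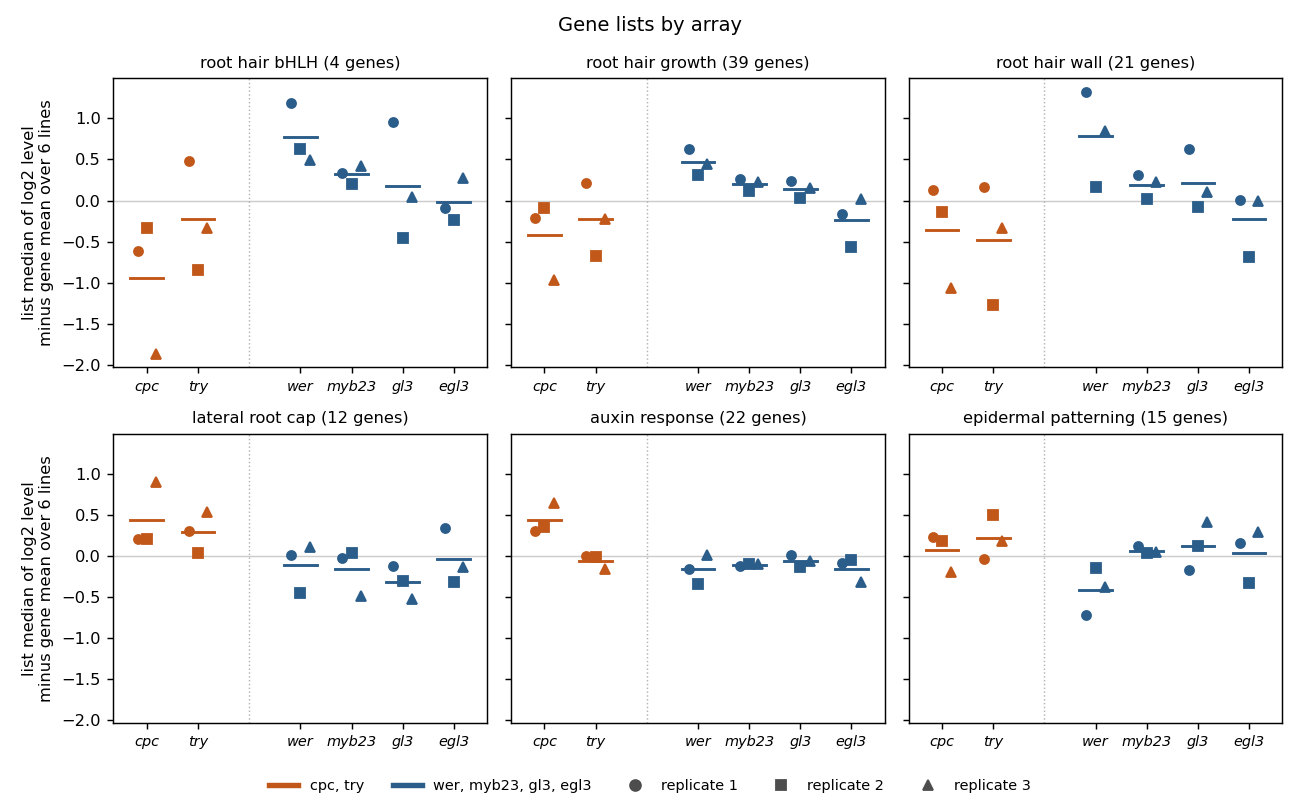
Median over the genes of 6 lists of the log2 level minus the gene's mean over the 6 lines, for each of the 18 arrays. Bars are means of 3 arrays, cpc and try are in orange at the left and the other 4 lines in blue at the right. The 3 root hair lists are highest in wer, egl3 lies nearest to cpc and try in the growth and wall lists, the lateral root cap list is higher in cpc and try, and the auxin list is high in cpc and not in try.

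The WER::GFP reporter also marks the lateral root cap, the cell layer that covers the root tip and is shed after programmed death, so its genes were read beside the hair genes. All 12 measured genes of this list had positive differences, with a median of 0.59. Of them 3 rose, or 25%, against 3.25% of all genes called. The mean level over the list's genes, taken per array, lay between 9.35 and 9.99 in the cpc and try arrays, with a median of 9.56. In the other 12 arrays it lay between 8.61 and 9.43, with a median of 9.05. In 9 of 12 genes both line means of cpc and try exceeded the other 4, against 9.85% of all genes. This shift came together with the lower hair genes across the groups, and its part in the hair result was not tested.

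BFN1, a nuclease gene of dying cells, was between 9.58 and 11.31, with a median of 10.69, in the cpc and try arrays and between 8.52 and 10.66, with a median of 9.79, in the other 12, and rose by 0.97 ± 0.26 SE (adjusted p = 0.0495). ARF16 and ARF10, auxin response factors of root cap cells, rose by 0.69 ± 0.18 (0.0398) and 0.64 ± 0.17 (0.0434). The groups overlapped in all 3 genes, and none of the 3 was called with line as a random block (adjusted p = 0.262, 0.277 and 0.184). Without cpc replicate 3 and egl3 replicate 2, the median of the list was 0.54 and 0 of its genes were called. The number of genes called was also 0 without the try, wer or myb23 line.

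Markers of ground tissue and stele, cells that the sort should not hold, had median differences of -0.0032 and 0.11. Both lists had members in either direction, and the stele genes ran from -0.87 to 0.70. Of the 15 ground tissue genes 7 were positive and 0 called, and the list's level per array lay between 4.24 and 5.10 in the cpc and try arrays and between 4.07 and 5.06 in the other 12. NUC, a zinc finger gene of the ground tissue, had the largest of these differences, -0.38 ± 0.25 (adjusted p = 0.493). Of 20 stele genes, 1 fell (5%, against 3.25% of all genes), the cytokinin receptor gene WOL, by 0.60 ± 0.15 (0.0283). WOL lay between 9.22 and 9.95, with a median of 9.64, in the cpc and try arrays and between 9.60 and 10.73, with a median of 10.31, in the other 12, and was not called without the cpc, try, wer or myb23 line or with line as a random block (0.197). The stele list's level per array was 4.57 to 5.16 in the cpc and try arrays and 4.51 to 4.96 in the other 12. Among 6 photosynthesis genes 0 were called, and LHCB3, of the light-harvesting complex, differed by -0.50 ± 0.18 (0.141).

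**Figure D3:**
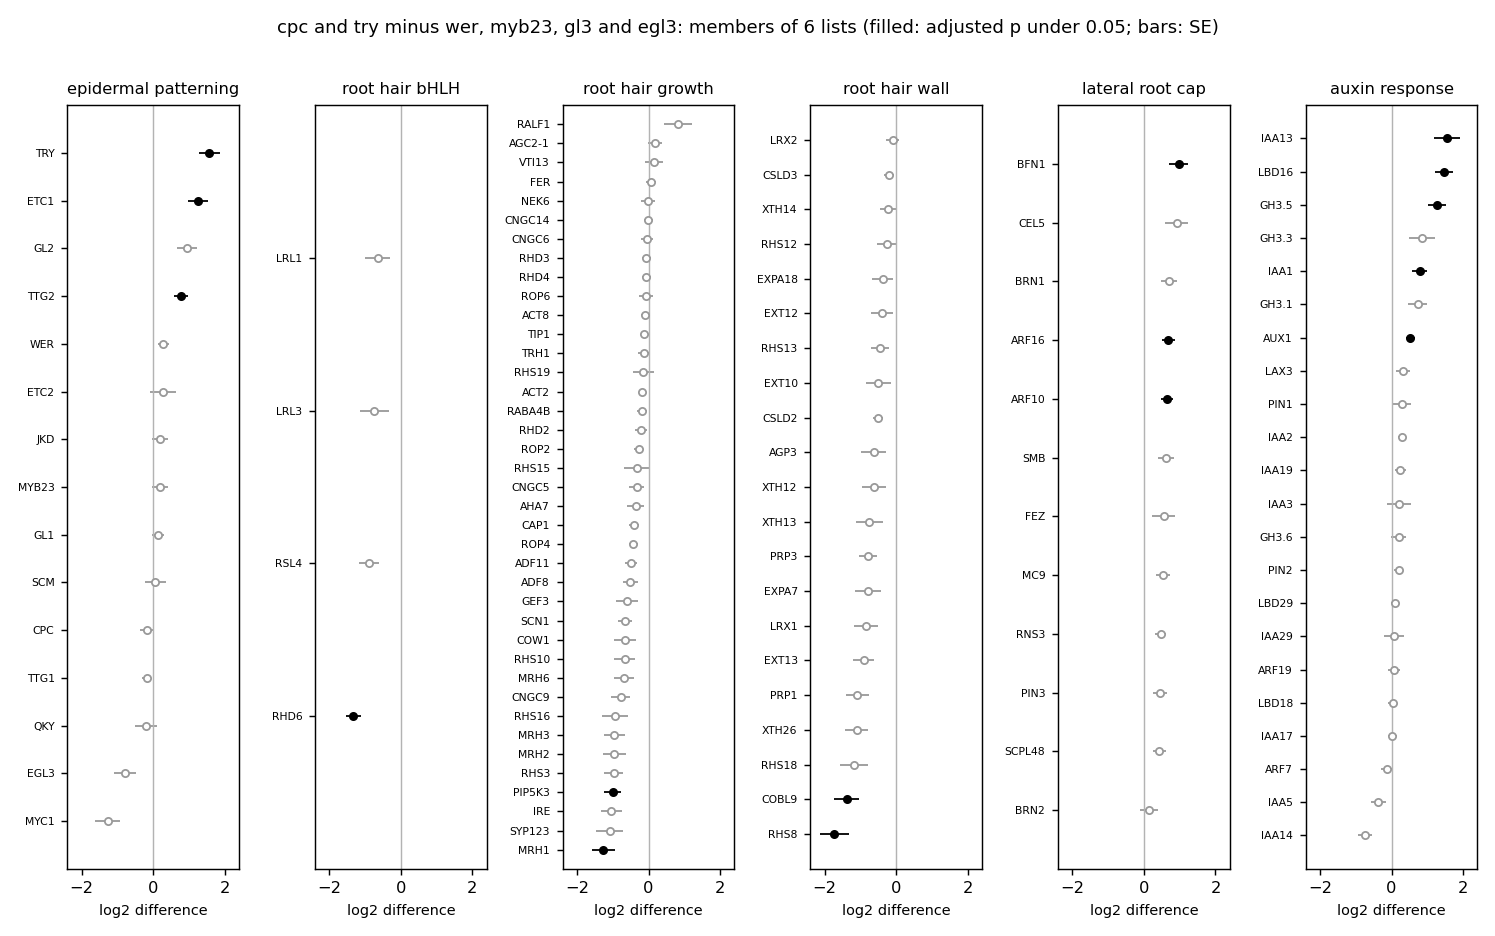
Difference, cpc and try minus wer, myb23, gl3 and egl3, of every measured gene of 6 lists on the log2 scale, with bars for the SE. Filled points have an adjusted p under 0.05. All 21 wall genes lie below 0 and all 12 lateral root cap genes above it, but filled points number 2 and 3.

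Genes of auxin response formed the list with the most called members by count. By share, the lateral root cap and bHLH lists had more, at 25% each. Of 22 measured genes, 5 rose and 0 fell, or 22.7% against 3.25% of all genes, the median was 0.23 and 19 differences were positive. The cpc line contributed more than try: the list's median deviation was 0.44 in cpc and -0.11 in try, against -0.20 to -0.02 in the other 4 lines. With try as the only hair-regulator line the list's median was -0.07, with 2 genes higher and 2 lower.

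LBD16, a factor of lateral root initiation, was between 6.17 and 7.25, with a median of 7.07, in the cpc and try arrays and between 4.74 and 6.40, with a median of 5.30, in the other 12. It rose by 1.45 ± 0.25 SE (adjusted p = 0.00222), or 2.74-fold, in both cpc (6.63) and try (7.14). In 5 of 6 cpc and try arrays LBD16 exceeded all 12 others, and it was called in all 18 runs that left out 1 array. It was also called with line as a random block (adjusted p = 0.00966), and not without the try line (0.0748). With the 6 line means as the units in limma it was not called (adjusted p = 0.353).

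IAA13, an Aux/IAA repressor gene, was between 7.66 and 10.13, with a median of 9.71, in the cpc and try arrays and between 5.89 and 8.96, with a median of 8.02, in the other 12, and rose by 1.55 ± 0.37 SE (adjusted p = 0.026). Its lowest line was wer, at 6.50, and the adjusted p was 0.178 without wer and 0.118 without try. It was called in 14 of 18 runs that left out 1 array (adjusted p of up to 0.112 in the others), and with line as a random block the adjusted p was 0.217. GH3.5, which joins auxin to amino acids, rose by 1.28 ± 0.25 SE (0.00584). The cpc line averaged 10.15 and the try line 8.51, against 7.88 to 8.13 in the other 4. GH3.5 was higher in cpc than in try by 1.65 ± 0.41 SE (adjusted p = 0.0355), and with try as the only hair-regulator line the pooled adjusted p was 0.673. With line as a random block it was 0.134.

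The other called genes of this list were IAA1, another Aux/IAA gene, at 0.78 ± 0.20 (adjusted p = 0.0403), and AUX1, the auxin influx carrier, at 0.53 ± 0.13 (0.035). These names were added after their values were seen. Without cpc replicate 3 and egl3 replicate 2 the list had 2 called genes.

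The iron list and the list of wound, touch and jasmonate genes had 1 called gene of 20 each (5%), and the cell cycle list 1 of 23 (4.35%), near the 3.25% of all genes. IRT2, an iron transporter of the root epidermis, was between 6.45 and 8.47, with a median of 7.36, in the cpc and try arrays and between 8.20 and 10.54, with a median of 8.85, in the other 12, and fell by 1.53 ± 0.31 SE (adjusted p = 0.0078). In 4 of 6 cpc and try arrays it was below all 12 others, and it was called in all 18 runs that left out 1 array. The median of the iron list was -0.01. IRT2 was not called without the try line (0.12), without wer (0.0763) or with line as a random block (0.0759).

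JAZ8, a repressor of jasmonate response, was the called gene of the list of wound, touch and jasmonate genes. It lay between 9.08 and 10.25, with a median of 9.97, in the cpc and try arrays and between 7.64 and 10.10, with a median of 8.63, in the other 12, and rose by 1.08 ± 0.24 SE (adjusted p = 0.0138). The gl3 line, at 9.84, was as high as cpc and try, at 9.67 and 10.01. JAZ8 was not called without try (0.136), without wer (0.122) or with line as a random block (0.248), nor without cpc replicate 3 or try replicate 3. Of the 20 genes 19 had a positive difference and the list's median was 0.34. By line, the list's median deviation was 0.32 in cpc and 0.15 in try. It was -0.49 in wer, -0.09 in myb23, 0.29 in gl3 and -0.03 in egl3, so gl3 lay above try.

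The called cell cycle gene was the cyclin CYCD3;1, which rose by 0.44 ± 0.12 (adjusted p = 0.0495). It was called in 4 of 18 runs that left out 1 array and not with line as a random block (0.173). No gene was called by limma among 13 heat shock, 19 flavonoid, 13 nutrient uptake or 19 ethylene genes. In these lists, in that order, 5, 4, 5 and 2 genes had an unadjusted p under 0.05, against 16% of all genes. In the heat shock list 12 of 13 differences were negative, against 49.5% over all genes, with a median of -0.62. The small heat shock protein gene HSP17.6A, at -1.31 ± 0.51 (0.185), had the largest. By line, this list's median deviation was -0.65 in cpc and -0.05 in try. It was 0.32 in wer, -0.08 in myb23, -0.12 in gl3 and 0.55 in egl3, so try lay among the other 4 lines. In the flavonoid list 18 of 19 differences were positive, with a median of 0.34. With try as the only hair-regulator line that median was -0.01, and with cpc as the only one it was 0.64. The flavonol synthase gene FLS1 (0.74 ± 0.33, 0.269), the potassium transporter gene HAK5 (0.68 ± 0.61, 0.621) and the ethylene-forming oxidase gene ACO1 (0.69 ± 0.35, 0.35) had the largest differences of their lists. For HAK5 a single array, egl3 replicate 2, stood at 8.44, against a median of 3.97 over the 12 non-hair-regulator arrays. The cpc and try arrays lay between 4.34 and 5.78. HAK5 was not called in any of the 18 runs that left out 1 array.

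The 16 genes described next are the 8 largest differences per direction among the 489 called genes whose cpc and try means both lay on one side of all 4 other line means. They were chosen for that property, so it is no result. Of the 7 called rises of at least 2, this choice kept 3. Each of the 16 was called in all 18 runs that left out 1 array. Genes given by a locus code have no symbol in the gene table used.

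Among those that rose, 3 had groups of arrays that did not overlap, which was the case for 0.0933% of all genes in this direction. These genes were chosen for large called differences in the same arrays, which favours separation, so the comparison is not a test. AT2G35585 lay between 7.91 and 9.33, with a median of 8.42, in the cpc and try arrays and between 4.84 and 7.49, with a median of 6.36, in the other 12, and rose by 2.18 ± 0.26 SE (adjusted p = 3.89e-05). CKX4, a cytokinin oxidase gene, lay between 6.40 and 8.17, with a median of 7.42, in the cpc and try arrays and between 4.03 and 6.33, with a median of 5.37, in the other 12, and rose by 2.02 ± 0.38 SE (0.004). AtS40-3, of a gene family linked to senescence, lay between 6.72 and 8.26, with a median of 7.29, in the cpc and try arrays and between 4.79 and 5.82, with a median of 5.58, in the other 12, and rose by 1.94 ± 0.22 SE (2.56e-05). All 3 were also called with line as a random block and without each line in turn. With the 6 line means as the units in limma none of the 3 was called (adjusted p = 0.446, 0.233 and 0.112).

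RBK1, a kinase that binds ROP GTPases, was between 8.65 and 10.44, with a median of 9.29, in the cpc and try arrays and between 6.51 and 9.02, with a median of 7.27, in the other 12. It rose by 1.97 ± 0.34 SE (adjusted p = 0.00216), with 4 of 6 arrays above all others. ACP5, an acyl carrier protein gene, rose by 2.00 ± 0.39 SE (0.00582), with single gl3 and egl3 arrays in the range of cpc and try, and was not called without the try line (0.0792), without wer (0.0735) or with line as a random block (0.124).

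In the other 3 genes of this direction, 1 line carried the difference. AT5G19100 averaged 11.32 ± 0.26 SD in try, against 6.59 ± 0.16 in cpc and 6.27 to 6.42 in the other 4 lines, and its pooled difference of 2.60 ± 0.21 SE (adjusted p = 2.07e-07) averages a high and a low line. Its cpc level was 4.73 ± 0.34 SE below try (4.27e-08). AT5G18340 was alike, at 6.95 in try, 3.78 in cpc and 3.31 to 3.55 elsewhere, with a pooled difference of 1.93 ± 0.16 SE (2.07e-07). Without try, the adjusted p of both genes was 0.635 and 0.297. CYP89A5, a cytochrome P450 gene, rose by 1.90 ± 0.21 SE (1.04e-05), and the egl3 line alone, at 5.68 ± 0.26 SD, was low, while cpc and try averaged 10.91 and 11.27 and wer, myb23 and gl3 10.16 to 10.68. Without egl3 its adjusted p was 0.0778. With line as a random block none of the 3 was called (adjusted p = 0.115, 0.0839 and 0.405).

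Larger differences were found in the other direction. AT4G15390 lay between 3.24 and 4.71, with a median of 4.17, in the cpc and try arrays and between 5.94 and 10.27, with a median of 9.01, in the other 12. It fell by 4.58 ± 0.24 SE (adjusted p = 2.49e-10), or 23.9-fold, and the groups did not overlap. AT5G26270 was between 2.76 and 3.85, with a median of 3.20, in the cpc and try arrays and between 4.01 and 8.76, with a median of 7.47, in the other 12, where only gl3 replicate 2 was near the cpc and try range. It fell by 4.20 ± 0.39 SE (1.38e-06).

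AT4G14980 was between 2.85 and 3.55, with a median of 3.22, in the cpc and try arrays and between 6.41 and 7.45, with a median of 6.96, in the other 12, a fall of 3.77 ± 0.22 SE (adjusted p = 9.91e-10). AT4G13860 was between 4.02 and 5.19, with a median of 4.61, in the cpc and try arrays and between 7.41 and 9.35, with a median of 8.37, in the other 12, a fall of 3.75 ± 0.18 SE. In both genes a gap of over 2 log2 units separated the groups of arrays. Groups on one side in this direction were found in 0.149% of all genes, but the genes named here were chosen for large differences, which favours such gaps. No detection calls were used, so the lowest levels may be background, and log2 differences against them are then too small.

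The remaining 4 genes were low in cpc, in try and in gl3 replicates 2 and 3, and high in gl3 replicate 1 and in the other 3 lines. AT5G43030 was between 2.33 and 3.68, with a median of 2.59, in the cpc and try arrays and between 2.48 and 9.10, with a median of 8.62, in the other 12. In the gl3 arrays it was 8.58, 2.65 and 2.48. It fell by 4.94 ± 0.58 SE (adjusted p = 3.53e-05), and without gl3 replicate 1 by 4.43.

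AT5G43040, its neighbour, fell by 4.09 ± 0.53 SE, AT5G46520 by 3.66 ± 0.48 SE and AT5G54040 by 3.57 ± 0.50 SE. Without gl3 replicate 1 they fell by 3.65, 3.26 and 3.20, and all 4 genes stayed called, with adjusted p of at most 2.93e-06. Without the gl3 line altogether, all 4 were called too.

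**Figure D4:**
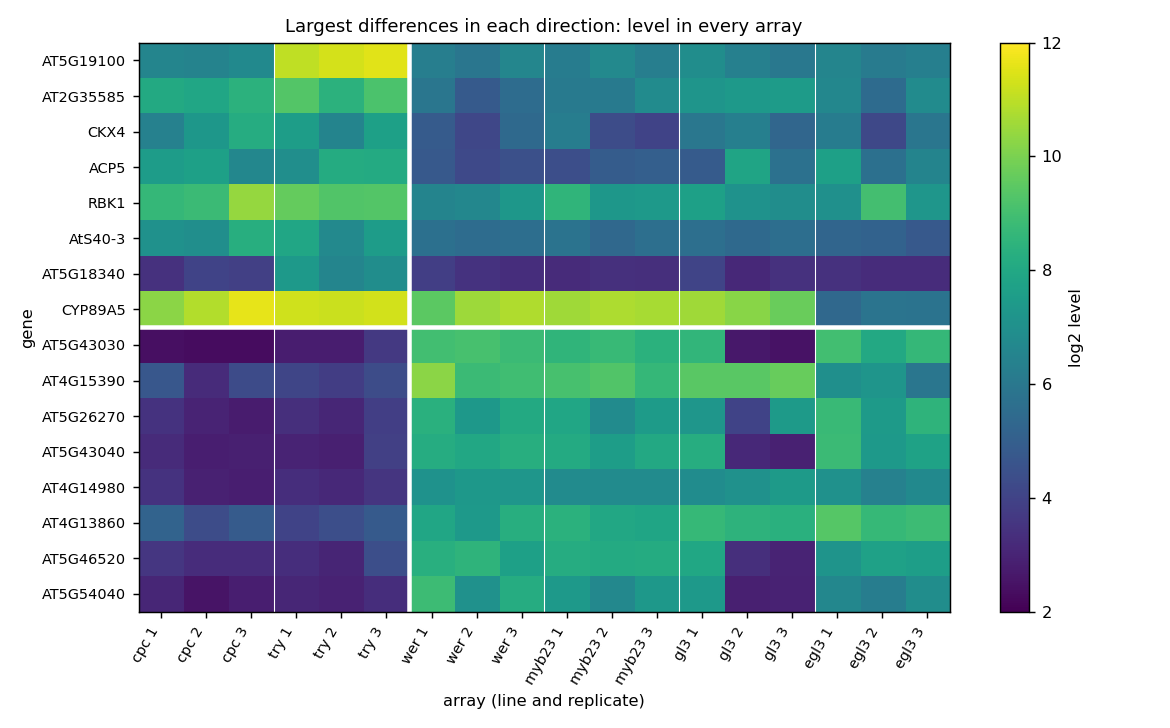
Log2 level, by colour, of the 8 called genes with the largest differences in each direction among those whose cpc and try means both lay on one side of the 4 other line means (above the line those that rose in cpc and try, below it those that fell) in each of the 18 arrays, with the 6 cpc and try arrays at the left. AT5G19100 and AT5G18340 are high in try alone, CYP89A5 is low in egl3 alone, and in 4 chromosome 5 genes gl3 replicates 2 and 3 are as low as cpc and try.

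Genes without overlap between the groups were rare. Of the 697 called genes, 19 had all 6 cpc and try arrays above the other 12 and 31 had them below. Of the 31, 15 were on chromosome 4, which holds 3151 of the genes tested, 8 on chromosome 5, 5 on chromosome 1, 3 on chromosome 2 and 0 on chromosome 3. A stretch of 581 tested genes between AT4G12990 and AT4G19490, chosen after the values were seen, held 13 of the 31. In this stretch 53 genes were called in either direction. Over all 21440 genes, 32 (0.149%) had the 6 arrays all below the 12, and 697 (3.25%) were called. The stretch was chosen on these same values, so the comparison is not a test. None of the 6 mutated loci is on chromosome 4. Called genes were 4.48% of those on chromosome 4 and 4.46% on chromosome 5, against 2.47%, 3.34% and 1.94% on chromosomes 1, 2 and 3.

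Several genes of known function were among the 50, named here after their values were seen. VPS54, a subunit of a vesicle tethering complex, lay between 5.33 and 6.45, with a median of 5.83, in the cpc and try arrays and between 6.65 and 8.24, with a median of 7.62, in the other 12, and fell by 1.64 ± 0.15 SE (adjusted p = 1.48e-06). BZO2H3, a bZIP factor gene, fell by 1.76 ± 0.24 SE (0.000147). ARA1, an arabinose kinase gene, fell by 1.09 ± 0.17 SE (0.000948), and ADA2B, a transcriptional adaptor gene, by 0.73 ± 0.13 SE (0.00278).

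The set of 40 genes that fell to a mean under 4 in both cpc and try held 20 genes of chromosome 5 and 8 of chromosome 4. Of the tested genes placed in the gene table, 4864 are on chromosome 5 and 3151 on chromosome 4. The set was defined by cpc and try alone, and in some of its genes another line was low too. For example, egl3 averaged 3.32 for AT2G13970 and 3.22 for AT2G04380. Of the 100 tested genes nearest CPC, 50 on each side, 1 was called. The same count was 5 around TRY, 3 around WER, 6 around MYB23 and 3 around EGL3, against 3.25 per 100 genes overall. TRY, WER and MYB23 are on chromosome 5, where 4.46% of genes were called. GL3 was not among the genes analysed, so no such count was made around it.

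How far the pooled contrast describes both lines of the hair-regulator group was read from the difference between cpc and try, and the spread among the other 4 lines from an F test. Between cpc and try 504 genes differed (2.35% of those tested), 322 higher in cpc (1.5%) and 182 lower (0.849%). Among wer, myb23, gl3 and egl3, 187 genes differed (0.872%), and 304 did without gl3 replicate 1. Of the 697 pooled calls, 106 also differed between cpc and try and 62 also differed among the other 4 lines. In 489 of the 697 both the cpc and the try mean lay on one side of all 4 other means, which held for 17.2% of all genes. The calls were made on these same means, so a larger share among called genes is built in and is not a test. These 489 comprised 240 genes that rose and 249 that fell.

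The lines left out decided much of the count. It was 602 with try as the only hair-regulator line and 501 with cpc as the only one, of which 327 and 271 were among the 697. Without wer the count was 300 and without myb23 371, of which 292 and 369 were among the 697. Without gl3 and without egl3 it was 951 and 962, of which 631 and 594 were among the 697.

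Arrays of 1 line share a genotype, and the tests above take each array as a sample. With line as a random block, 86 genes were called, 30 higher and 56 lower, of which 85 were among the 697. That fit used 1 correlation between arrays of a line for all genes, estimated at 0.076, so it discounts arrays of 1 line only slightly. With the 6 line means as the units, 2 against 4, limma called 4 genes, all lower: AT4G01740, AT4G14980, AT4G01730 and AT4G13860, by 3.21, 3.77, 2.45 and 3.75 on the log2 scale, and 1748 genes had an unadjusted p under 0.05. All 4 are on chromosome 4, and the first and the third are neighbours.

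**Figure D5:**
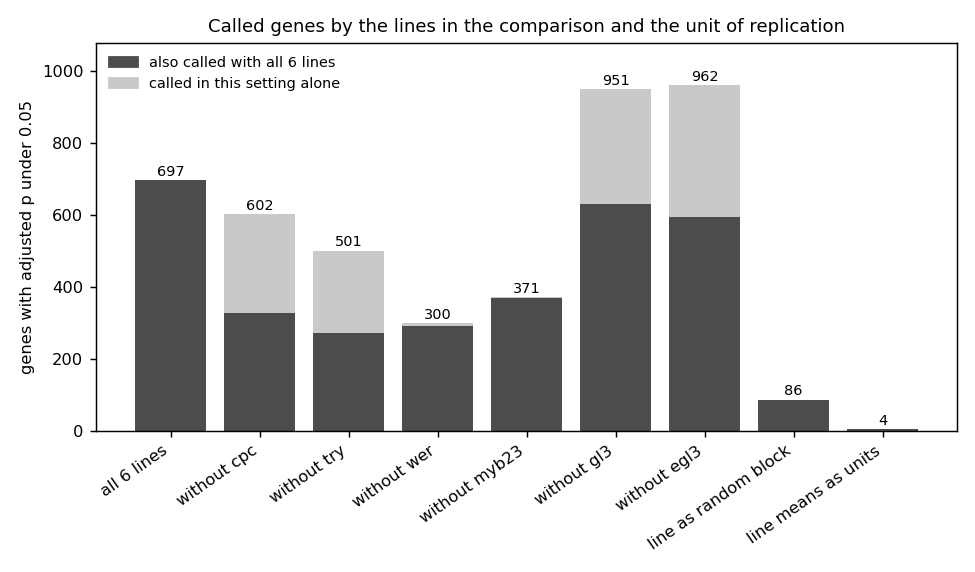
Number of genes with an adjusted p under 0.05 with all 6 lines, without each line in turn, with line as a random block and with the 6 line means as units. The dark part of each bar is the genes also called with all 6 lines, which range from 4 to 631 among the alternatives and number 697 with all lines.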

How the data were processed

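The authors deposited 1 table of log2 expression values, made with RMA (robust multi-array averaging) per the submitters' processing notes. Neither the array type nor its genome build or software is given in the sources used here. RMA corrects background, equalises arrays and sums probes, which would hide a shift common to most genes and shrink differences of dim ones. The values ran from 2.01 to 14.06. Of 21504 entries, 64 controls were left out. Of the 21440 genes tested, 21222 were found in a RefSeq table (TAIR10.1), used only for names and gene order.

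All 24 arrays entered 1 linear model, with a mean for each of the 8 lines, in limma 3.58.1 (lmFit, eBayes) under R 4.3.3, without a filter. Tests were 2-sided and adjusted over all genes with the BH method at 0.05. The number of arrays limits the precision. Genes are named by rule: the 8 largest called differences per direction with line means apart, all measured patterning and hair bHLH genes, and up to 3 called genes per direction from each other list, or the largest difference where none was called. The groups, the 16 lists (281 of 321 genes measured) and the tests were chosen with earlier results of these data known, so no list is independent evidence. Alternatives were the 18 arrays alone, a replicate block, 2 scalings, a filter at a mean of 5, another variance prior, array weights, line as unit or block, and leaving out lines and arrays. Whether replicate numbers pair the arrays was not settled. The correlations of same-numbered deviations ran from -0.47 to 0.44 over 45 pairs, with a median of 0.066, and 20 exceeded 0.1. Over 90 pairs of different numbers the median was -0.042 and 29 exceeded 0.1. The numbers were taken from the sample titles, and the labels' descriptions number the arrays differently.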

Additional observations from a re-analysis of the deposited data

Results flagged for a closer look

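In 3 named genes the effect differed between cpc and try by the test of the difference itself, in limma with BH adjustment over all genes. AT5G19100 was lower in cpc than in try by 4.73 ± 0.34 SE (difference -4.73, adjusted p = 4.27e-08), with 3 of 3 cpc arrays below all try arrays. AT5G18340 was lower in cpc than in try by 3.17 ± 0.25 SE (difference -3.17), again in 3 of 3 arrays. GH3.5 was higher in cpc than in try by 1.65 ± 0.41 SE (adjusted p = 0.0355). For each of the 3 the pooled difference is an average over lines that differ from each other.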

How the results depend on the processing

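The pooled count of 697 called genes (325 higher, 372 lower) stayed within 1.5 times under median centring (620), quantile scaling (646) and a filter at a mean of 5 (732). It also did so under a trended robust prior (722) and with the 18 arrays alone (535). With the 18 arrays alone, the count of higher genes by itself, 215, lay just outside 1.5 times. The replicate block gave 725 genes, 645 of them among the 697. In the block fit 596 genes differed between cpc and try and 192 among the other 4 lines. In 10 of 18 arrays the best correlation was with arrays of the same number.

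The count moved with the unit and with the lines: 86 with line as a random block (30 higher, 56 lower), 4 with line means as units (0 higher, 4 lower), 300 without wer (133 higher, 167 lower) and 371 without myb23 (172 higher, 199 lower). The cause was not tested. Array weights gave 5080 genes (2494 higher, 2586 lower), 11510 between cpc and try and 330 among the other 4 lines, but the weights did not converge and try replicate 3 received 54.9. Without cpc replicate 3 and egl3 replicate 2, a choice made after seeing the data, the counts were 423 (181 higher, 242 lower), 317 between cpc and try and 117 among the other 4 lines.

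Leaving out 1 array at a time gave 341 to 1020 genes (144 to 450 higher, 197 to 571 lower), 230 to 676 between cpc and try and 112 to 304 among the other 4 lines. In their own lines, CPC then differed by -1.04 to -0.63 and was called without cpc replicate 1, TRY by 1.70 to 2.24, WER by -0.51 to -0.15, MYB23 by -0.38 to -0.20 and EGL3 by -0.061 to 0.78. CPC was also called under array weights (-1.02) and without wer (-0.97).

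Signs turned only in uncalled patterning genes among the named ones. Without the cpc line these were GL1 (-0.042), CPC (0.34), ETC2 (-0.32), QKY (0.46) and JKD (-0.29). SCM turned without try (-0.16) and without wer (-0.083), as did MYB23 without wer (-0.078) and under array weights (-0.088). Without single arrays SCM ran from -0.084 to 0.29 and QKY from -0.44 to 0.11, and QKY was 0.081 without both arrays that stood apart. The 3 hair lists kept negative medians and the lateral root cap list a positive one under every setting run.

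With 3 arrays per line, and 2 lines against 4, a difference shared by all cpc and try arrays and a difference of these lines for other reasons cannot be told apart. Signal over background is unknown, so differences among the dimmest genes are uncertain.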

Other observations

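Single arrays stood at least 3 log2 units from the mean of the other 2 arrays of their line, which were within 1 of each other, in very unequal numbers of genes. The count was 130 for egl3 replicate 2, all above the other egl3 arrays, and 79 for cpc replicate 1, of which 78 were below the other cpc arrays. It was 52 for gl3 replicate 3, 37 for cpc replicate 3, 22 for gl3 replicate 1 and at most 15 for any other of the 18 arrays, and 0 for each try array. The genes of egl3 replicate 2 and cpc replicate 1 lay on all 5 chromosomes, with 24 and 14 on chromosome 5, whereas 14 of the 22 genes of gl3 replicate 1 were on chromosome 5.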
